A study of Mus musculus with 6 samples.

Results

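A group of 9 genes whose products move ions, water or lipids across the plasma membrane were followed in mouse embryonic fibroblasts (MEFs) that had passed through a narrow pore. They were chosen by name: the LRRC8 channel subunits Lrrc8a, Lrrc8b, Lrrc8c and Lrrc8d, the water channel Aqp1, the cation-chloride cotransporters Slc12a2 and Slc12a4, the potassium channel Kcnn4 and the scramblase Ano6. Each name matched 1 gene identifier, so all 9 were found among the 55335 genes of the count table, and all 9 had enough counts to be among the 15881 genes tested. Confine cells were wild-type MEFs seeded on a transwell membrane and collected after passing its 3 μm pores within 15 h, and Ctrl cells were the parental wild-type MEFs. Polyadenylated RNA was sequenced from 1 MEF line. The table has 3 Ctrl and 3 Confine columns. Confine replicates 1 and 2 do not differ in any of the 55335 rows, so they entered as a single library, called the first Confine library here, beside Confine replicate 3. No source says that the libraries came from separate cultures, so p-values measure the spread between these libraries, which may be technical. Ctrl cells had not been on the membrane, so passage, culture on the membrane and selection of the cells that pass cannot be told apart. The paper's transwell method, written for wider pores, seeds cells without serum above medium with serum. If used here, that difference in serum could not be told apart from them either.

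A cell that squeezes through a pore has to change shape and often volume, and water follows ions across the membrane. Swollen cells lose chloride and small organic solutes through the volume-regulated anion channel, a hexamer of LRRC8 proteins in which LRRC8A is obligatory and the other subunits set the permeability. Potassium leaves through calcium-activated channels such as KCa3.1 (Kcnn4), and KCC cotransporters carry potassium and chloride out together. Shrunken cells regain ions through sodium-proton exchangers and through NKCC1 (Slc12a2), which WNK and SPAK/OSR1 kinases control, while aquaporins let water pass quickly.

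Library totals were 22287210 to 27853805 counts in Ctrl and 27290138 and 32537550 in Confine. Values are CPM, counts divided by the library total after scaling with edgeR's TMM factors (normalized CPM), and 3 counts, taken as the floor, correspond to 0.101 to 0.128 normalized CPM, counting error only. A gene was called upregulated or downregulated at an adjusted p under 0.05 (edgeR's quasi-likelihood test, Benjamini-Hochberg over all tested genes). By this rule 12.8% of tested genes were higher and 10.2% lower in Confine (2035 and 1619 genes). Scaled by library size only, without TMM, these became 1444 higher and 2805 lower, and the median log2 fold change of all tested genes moved by -0.21. The fibroblast label was checked on 10 markers, of which 7 were tested, among them Col1a1, Col1a2 and Vim, while Thy1 and Lum had at most 2 counts in any library. Dcn, also untested, had 2, 0 and 0 counts in Ctrl and 27 and 3 in Confine. Of the 7, 5 were called higher by edgeR, while Col1a2 (log2 fold change 0.24, edgeR adjusted p = 0.359) and Pdgfrb (-0.36, adjusted p = 0.194) were not called, and both Confine libraries lay below all Ctrl libraries for Pdgfrb. The summed level, most of it from a few abundant genes such as Vim and Col1a1, was 8730 to 9590 normalized CPM in Ctrl and 15700 to 16500 in Confine, and the part of these markers in the results below was not tested. RNA from fewer cells of a type and less RNA per cell cannot be told apart in bulk libraries.

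In Confine, 5 genes were upregulated: Kcnn4, Lrrc8d, Lrrc8c, Lrrc8a and Aqp1, by 1.49 to 2.79 times in mean normalized CPM. None of the 9 was called downregulated by edgeR, DESeq2 or limma-voom, nor was any lower at an unadjusted p under 0.05. The share called higher was 55.6%, against 12.8% of all tested genes, and the median log2 fold change of the 9 was 0.58 against -0.0021. The 9 were chosen with earlier results of these data known, so these contrasts are a description and not an independent test. In the same 5 genes both Confine libraries lay above all 3 Ctrl libraries, which held for 25.9% of tested genes, and in the other 4 the groups overlapped. In none of the 9 did both Confine libraries lie below all Ctrl libraries, as 23.6% of tested genes did, and 49.5% were apart in either direction. None of the 9 passed the study's further cutoff of a log2 fold change above 1.5, which 8.00% of tested genes passed together with the adjusted p (4.89% higher and 3.11% lower), and 23.0% were called by the adjusted p alone. That count was also 0 with an unadjusted p, with DESeq2 and with limma-voom. The plot of normalized CPM by library shows the separate and the overlapping groups.

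**Figure D1:**
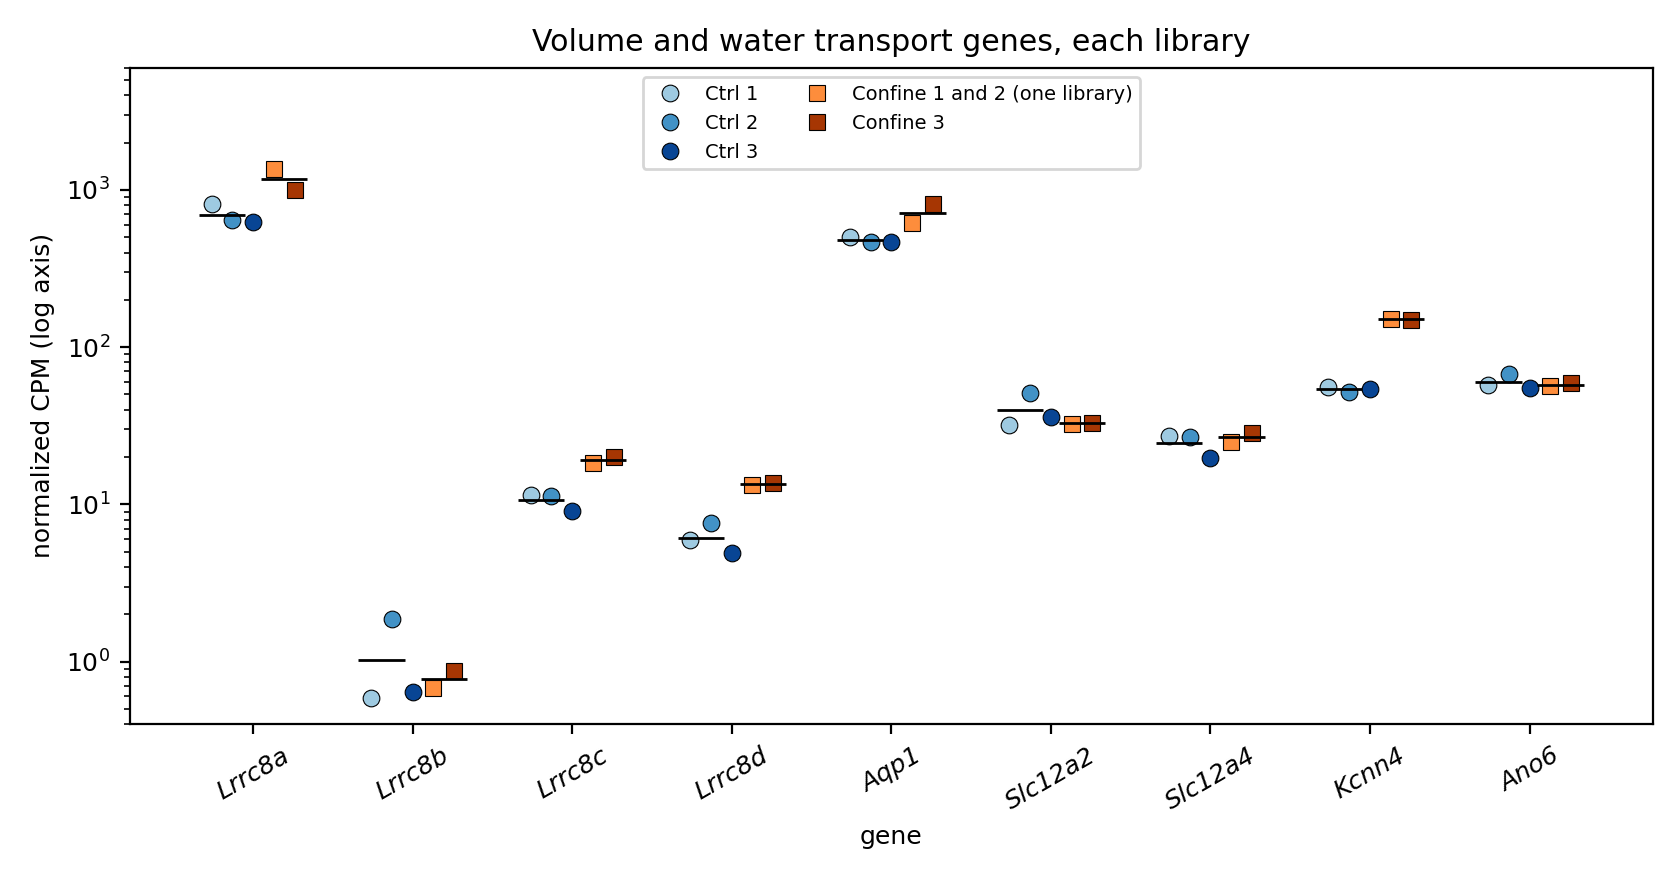
Normalized CPM (log axis) of the 9 genes in each library, with circles for the 3 Ctrl libraries, squares for the 2 Confine libraries and black lines for group means. Both squares lie above all circles for Lrrc8a, Lrrc8c, Lrrc8d, Aqp1 and Kcnn4, and circles and squares overlap for the other 4.

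Kcnn4 showed the largest change. It encodes KCa3.1, an intermediate-conductance potassium channel opened by calcium through bound calmodulin, known for volume loss in red blood cells and lymphocytes and for a part in cell migration. Its level was 55.6, 51.5 and 54.3 normalized CPM in Ctrl and 151.9 and 148.1 in Confine. The spread within a group was small, at 53.8 ± 2.07 (SD, n = 3) against 150.0 ± 2.68 (SD, n = 2), and the lowest Confine library stood well above the highest Ctrl library. The log2 fold change came to 1.48 (standard error 0.17, 95% interval 1.12 to 1.84, edgeR adjusted p = 4.46e-06). Its estimate sat just under the cutoff of 1.5, and fits that dropped 1 library gave 1.45 to 1.5. Kcnn4 lies on the plus strand of chromosome 7 from 24370263 to 24386690 (GRCm38), and its exons overlap no other annotated gene.

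Of the LRRC8 subunits, Lrrc8d rose most. LRRC8D is known to widen the channel's permeability to neutral and larger organic solutes, taurine among them. Lrrc8d had 5.94, 7.56 and 4.93 normalized CPM in Ctrl and 13.2 and 13.6 in Confine. Both Confine libraries were nearly equal and above every Ctrl library. It changed by a log2 fold of 1.12 (standard error 0.23, 95% interval 0.64 to 1.61, edgeR adjusted p = 0.00139). Parts of its long transcripts match those of 31 other genes over at least 100 bases at 95% identity or more. The longest match was 461 bases. Some Lrrc8d reads could thus have been assigned elsewhere or dropped, and some reads of those genes assigned to Lrrc8d. Neither was tested.

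Lrrc8c, which forms channels together with LRRC8A, was also upregulated. It had 11.5, 11.3 and 9.02 normalized CPM in Ctrl and 18.4 and 20.1 in Confine. The groups were apart by more than the spread within either. The log2 fold change came to 0.86 (standard error 0.20, 95% interval 0.43 to 1.29, edgeR adjusted p = 0.00443). Without Confine replicate 3, which leaves 1 library in that group, the log2 fold change was 0.80 and the adjusted p 0.0679.

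Lrrc8a, the obligatory subunit, was by far the most abundant of the family. It had 809.7, 640.2 and 623.5 normalized CPM in Ctrl and 1363 and 993.8 in Confine. The first Confine library was much higher than Confine replicate 3, and Confine replicate 3 was closer to Ctrl replicate 1 than to its own group's other library. The log2 fold change came to 0.77 (standard error 0.19, 95% interval 0.36 to 1.18, edgeR adjusted p = 0.00671). Without the first Confine library it was 0.53 with an adjusted p of 0.134. Lrrc8a shares 2855 bases of identical transcript sequence with Gm28035, an annotated gene on the same strand with a mean of 1.0 counts per library, and 31.7% of its 4308 exon bases belong to no other annotated gene. Reads in the shared part may have been left out of the count, since the authors' handling of such reads is not given in the sources used here.

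Lrrc8b, a subunit whose own part in the channel is less settled, had few counts. They numbered 17, 49 and 15 in Ctrl and 20 and 22 in Confine, or 0.587, 1.85 and 0.638 against 0.676 and 0.874 normalized CPM. Ctrl replicate 2 was the highest of all libraries and the groups overlapped. The log2 fold change came to -0.41 (standard error 0.55, 95% interval -1.56 to 0.75, edgeR adjusted p = 0.653), an interval that leaves room for a fall of over 2-fold or for a rise. Without Ctrl replicate 2 the log2 fold change was 0.33.

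Lrrc8b, Lrrc8c and Lrrc8d are neighbours on the plus strand of chromosome 5, in a stretch of 416.7 kb from 105415775 to 105832436 (GRCm38) that holds no other protein-coding gene. The gap from Lrrc8b to Lrrc8c is 29.3 kb and that from Lrrc8c to Lrrc8d 87.0 kb. Along this stretch the log2 fold changes were -0.41, 0.86 and 1.12, with no test made of the differences between them. Lrrc8a lies on chromosome 2 from 30237715 to 30263790. The other genes are spread over chromosomes 6 (Aqp1, 55336432 to 55348555), 8 (Slc12a4, 105943590 to 105966097), 15 (Ano6, 95790843 to 95974751) and 18 (Slc12a2, 57878678 to 57946821).

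Relative levels of the subunits were compared per length, as normalized CPM per kilobase of exon, with Lrrc8e added as the fifth of the 5 subunits. Lrrc8a held 98.8%, 98.4% and 98.8% of the summed level in Ctrl and 98.9% and 98.3% in Confine. A difference beyond the spread between libraries was not detected (difference -0.080 percentage points, two-sided exact permutation test, p = 0.7, adjusted p = 0.7 over the 5 shares, where 0.1 is the smallest p that 3 libraries against 2 allow). Lrrc8c came next with 0.856% ± 0.102 (SD, n = 3) in Ctrl and 0.935% ± 0.257 (SD, n = 2) in Confine, followed by Lrrc8d with 0.305% ± 0.0813 and 0.395% ± 0.0928. Lrrc8b and Lrrc8e stayed at or below 0.182% and 0.0967% in every library. Over the 5 subunits the permutation p ran from 0.2 to 0.7, and each adjusted p was 0.7. Lrrc8e itself had 6 to 22 counts per library, with a log2 fold change of -0.49 (edgeR adjusted p = 0.663). With lengths cut to exon bases that belong to no other gene, and all counts kept, the share of Lrrc8a was 99.6% in Ctrl and 99.5% in Confine. That share would be overstated if reads from the shared bases were counted.

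**Figure D2:**
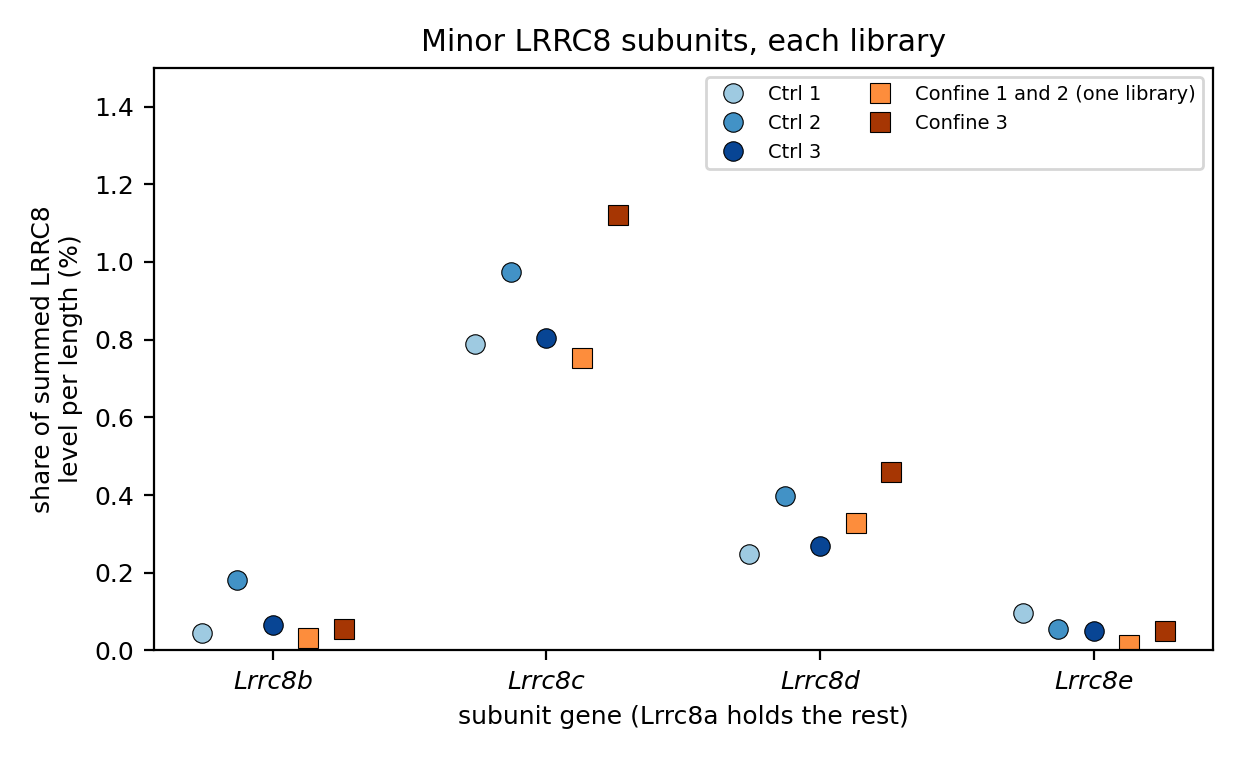
Share of each minor subunit in the summed level per length of the 5 LRRC8 genes (percent, axis from 0), with circles for the 3 Ctrl and squares for the 2 Confine libraries. Every share is at most 1.12%, and for Lrrc8b, Lrrc8c and Lrrc8d the Ctrl and Confine libraries overlap, while the lowest Ctrl share of Lrrc8e (0.0492%) and its highest Confine share (0.0491%) nearly touch.

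Aqp1, the water channel found in red blood cells, kidney and capillary endothelium, was among the most abundant transcripts. It had 505.2, 464.9 and 467.9 normalized CPM in Ctrl and 615.9 and 815.2 in Confine. The Ctrl libraries were close together, while the 2 Confine libraries differed from each other by more than the first Confine library did from Ctrl. The log2 fold change came to 0.58 (standard error 0.18, 95% interval 0.20 to 0.96, edgeR adjusted p = 0.0271). This call was the least stable of the 5: without Confine replicate 3 the log2 fold change was 0.36 with an adjusted p of 0.334, and the adjusted p was 0.0558 without Ctrl replicate 1, 0.0933 without Ctrl replicate 3 and 0.14 with library size alone. Several defining markers of the cell types best known for Aqp1 and Kcnn4 were at 0. Of 9 erythroid markers 4 had 0 counts in all libraries, Hbb-bs and Hbb-bt among them, and the list summed to 2.73 to 3.91 normalized CPM in Ctrl and 3.18 to 5.88 in Confine. Alas2, with 19 to 57 counts per library, and Epor, with 26 to 98, were present in every library, and neither was called by edgeR. The 8 endothelial markers summed to 0.595 to 1.36 in Ctrl and 2.43 to 2.70 in Confine, with Tie1, Cldn5 and Emcn at 0 and Vwf called higher. The 10 leukocyte markers summed to 7.83 to 8.50 in Ctrl and 19.0 to 26.2 in Confine, with Cd3e, Adgre1 and Tyrobp among those at 0, Cd68 and Csf1r called higher and Lyz2 called lower. The 8 epithelial markers summed to at most 0.675 in any library.

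The 3 remaining genes were not called, and their groups overlapped. Slc12a2 encodes NKCC1, which brings sodium, potassium and chloride into the cell. It had 32.1, 51.4 and 36.0 normalized CPM in Ctrl and 32.4 and 32.9 in Confine, with Ctrl replicate 2 above the rest and the groups overlapping. The fitted log2 fold change was -0.28 (95% interval -0.73 to 0.16, edgeR adjusted p = 0.367), and it was -0.063 without Ctrl replicate 2. Slc12a4 encodes KCC1, which carries potassium and chloride out. It had 27.1, 26.9 and 19.7 normalized CPM in Ctrl and 25.0 and 28.2 in Confine, again overlapping. The fitted log2 fold change was 0.11 (95% interval -0.30 to 0.53, edgeR adjusted p = 0.738), with the sign turned by library size alone (-0.095).

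Per length, Slc12a2 was below Slc12a4 in every library. The ratio of Slc12a2 to Slc12a4 was 0.463, 0.749 and 0.715 in Ctrl and 0.508 and 0.457 in Confine. On the log2 scale the difference between groups was -0.38 (two-sided exact permutation test, p = 0.3, where 0.1 is the smallest p that the design allows, so this test could not pass 0.05), and Ctrl replicate 1 lay within the range of the Confine libraries.

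Ano6 encodes TMEM16F, a calcium-activated scramblase that exposes phosphatidylserine and also passes ions. It had 57.5, 67.3 and 54.7 normalized CPM in Ctrl and 56.3 and 59.0 in Confine. Both Confine libraries lay within the range of the Ctrl libraries. The fitted log2 fold change was -0.054 (95% interval -0.44 to 0.33, edgeR adjusted p = 0.869), so a change of 2-fold either way lies outside the interval. Its transcripts share at least 100 bases at 95% identity or more with those of 18 other genes.

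**Figure D3:**
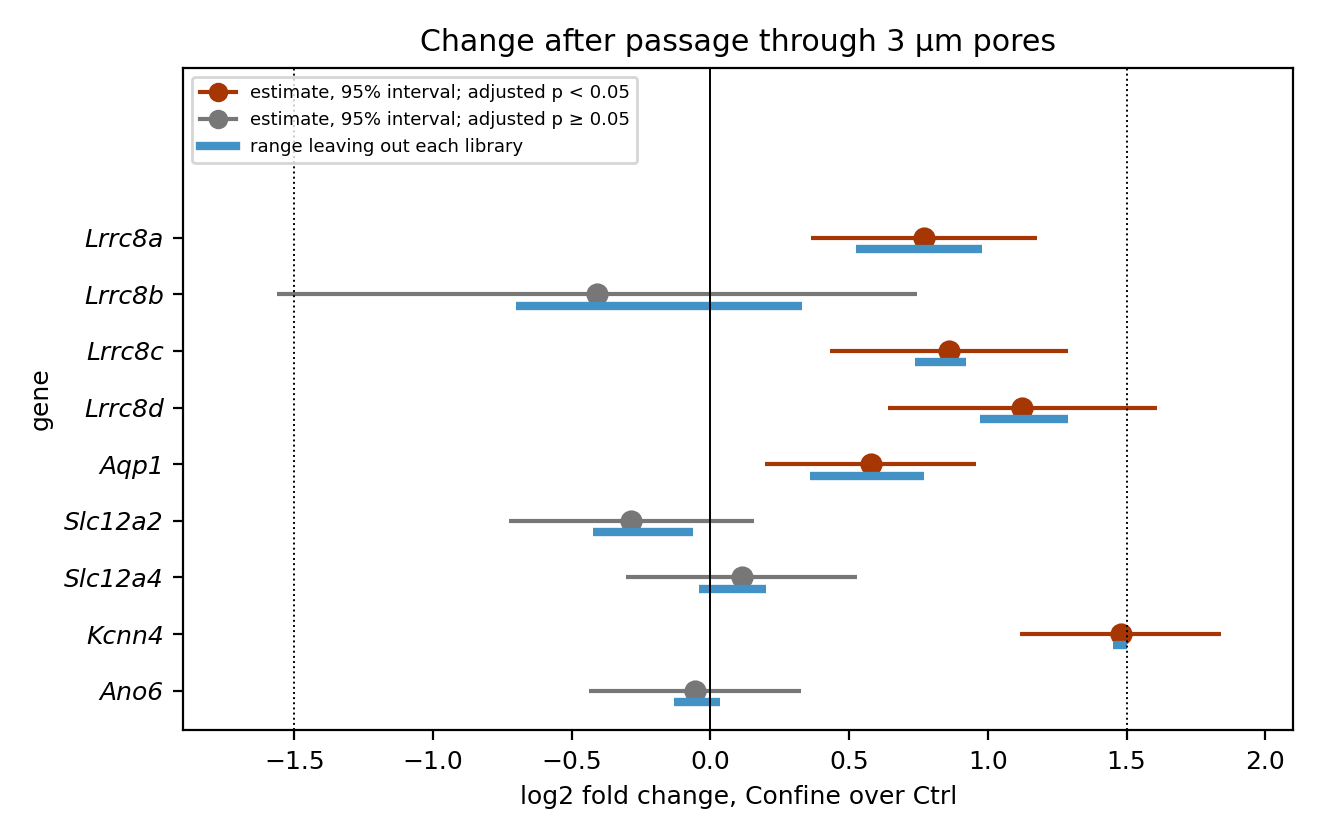
Log2 fold change of Confine over Ctrl for the 9 genes, as estimate with 95% interval (edgeR) and, in blue, the range over fits that each left out 1 library; dotted lines mark 1.5 and -1.5. The intervals of Lrrc8a, Lrrc8c, Lrrc8d, Aqp1 and Kcnn4 lie above 0, and those of the other 4 include 0.

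In order of level per length, Aqp1 and Lrrc8a stood at the top in Ctrl with 182.5 ± 8.55 and 160.4 ± 23.9 normalized CPM per kilobase (SD, n = 3), and their libraries overlapped. Dividing the same counts by only the exon bases that belong to no other gene gave Lrrc8a 506.7 ± 75.5 in Ctrl and 863.9 ± 191.4 in Confine. Its libraries then all lay above those of Aqp1. This holds only if no read from the shared bases was counted, which is not known, so the order of Lrrc8a and Aqp1 stays undecided. Over all exon bases the Ctrl levels of Aqp1 and Lrrc8a were above those of 98.1% and 97.7% of tested genes. Kcnn4 followed at 10.5 ± 0.405, above Slc12a4 at 5.75 ± 0.983, Ano6 at 4.88 ± 0.537 and Slc12a2 at 3.65 ± 0.932, where each neighbour overlapped the next among the last 3. Lrrc8c at 1.38 ± 0.179, Lrrc8d at 0.489 ± 0.105 and Lrrc8b at 0.153 ± 0.106 closed the order, each apart from its neighbours. In Confine, Lrrc8a (273.5 ± 60.6, SD, n = 2) and Aqp1 (272.4 ± 53.6) again overlapped at the top, and Kcnn4 followed at 29.3 ± 0.524, above 88.1% of tested genes against 75.4% in Ctrl. The order from Kcnn4 down was the same in both groups.

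The windows of 250 bases before the RefSeq start sites (GRCm38.p6) were read for 8 of the 9 genes, Slc12a2 being the other. ACGTG, the core letters of the hypoxia response element, occurred in the windows of Lrrc8a and Kcnn4 and in 16.6% of all 32851 windows. In both genes it reads CACGTG, which matches on both strands. GCGTG occurred in none of the 8 genes (28.2% of all windows), the AP-1 letters TGANTCA in 1, Lrrc8b (6.75%), and the TonE motif, the element bound by the osmotic stress factor NFAT5, in none (4.31%). Both strands were searched, and a match or its absence says nothing of binding. The stretches with CACGTG, in capitals, are shown from the 2 genes that hold it, from 5′ to 3′ and ending before the annotated gene start.
Lrrc8a, chr2:30237519-30237714, plus strand: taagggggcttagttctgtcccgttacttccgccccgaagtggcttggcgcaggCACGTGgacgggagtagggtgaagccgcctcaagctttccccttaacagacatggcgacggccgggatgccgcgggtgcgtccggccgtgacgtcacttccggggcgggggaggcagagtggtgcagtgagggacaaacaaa
Kcnn4, chr7:24370013-24370262, plus strand: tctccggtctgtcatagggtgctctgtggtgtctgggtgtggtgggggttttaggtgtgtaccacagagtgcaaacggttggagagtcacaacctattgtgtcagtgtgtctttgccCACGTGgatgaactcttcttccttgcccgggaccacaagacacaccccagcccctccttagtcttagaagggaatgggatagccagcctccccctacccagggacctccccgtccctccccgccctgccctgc

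To place these genes, 105 genes of volume, ion and water transport were read from the same fit in 11 lists, of which 69 were tested. Leaving out the 9 genes above, 12 of 60 tested genes (20.0%) were called higher and 11 (18.3%) lower, against 12.8% and 10.2% of all tested genes. With library size alone these became 8 higher (13.3%) and 13 lower (21.7%), against 9.09% and 17.7% of all tested genes. The median log2 fold change of the 60 was -0.021. These lists, too, were chosen with earlier results of these data known.

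**Figure D4:**
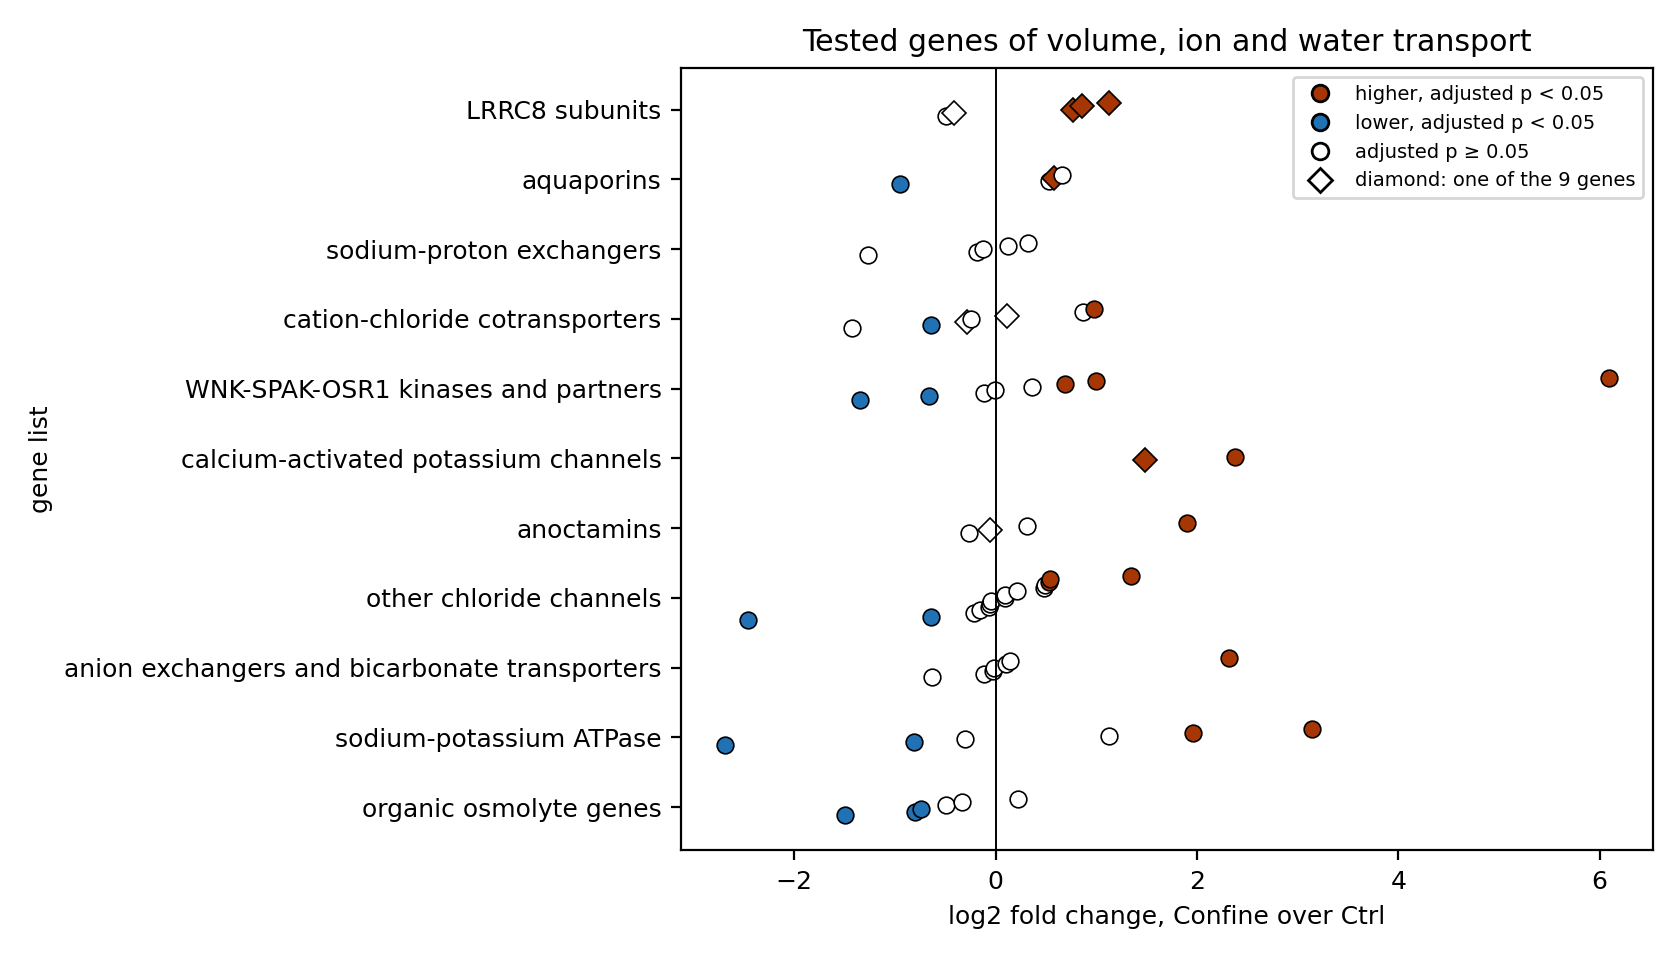
Log2 fold change of Confine over Ctrl for the 69 tested genes in 11 lists, filled where the edgeR adjusted p was under 0.05 and with diamonds for the 9 genes. All 3 filled osmolyte genes lie below 0, both calcium-activated potassium channels lie above 0, and the point at the far right is Klhl3, whose fitted value rests on 3 counts in Ctrl.

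Among potassium and calcium-activated chloride channels, Kcnn1 and Ano1 were upregulated beside Kcnn4. Kcnn1, which encodes the small-conductance channel SK1, had 48, 73 and 56 counts in Ctrl and 318 and 323 in Confine. It was the only calcium-activated potassium channel gene tested apart from Kcnn4, with a log2 fold change of 2.38 (standard error 0.27, edgeR adjusted p = 2.81e-06). Kcnma1, the large-conductance channel, had at most 3 counts in any library. Ano1, a calcium-activated chloride channel, had 26, 62 and 43 counts against 170 and 172, a log2 fold change of 1.90 (standard error 0.34, edgeR adjusted p = 4.00e-04), and the other 3 tested anoctamins, Ano6 included, were not called.

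Among aquaporins, 4 of 12 were tested. Aqp5, a water channel of glands and lung, was downregulated, from 124.7 ± 17.9 (SD, n = 3) normalized CPM in Ctrl to 64.7 ± 7.04 (SD, n = 2) in Confine (log2 fold change -0.95, standard error 0.19, edgeR adjusted p = 0.00128). Aqp1 and Aqp5 thus moved in opposite directions. Aqp4, Aqp8, Aqp9 and Aqp12 had 0 counts in all libraries.

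Of 7 tested cotransporters 1 was called higher and 1 lower, 14.3% each, against 12.8% and 10.2% of all tested genes. Slc12a7 (KCC4) was downregulated by a narrow margin, with -0.64 (standard error 0.22, edgeR adjusted p = 0.0481). Its adjusted p was 0.418 without Confine replicate 3 and was also above 0.05 without the first Confine library (0.0531), Ctrl replicate 1 (0.124) or Ctrl replicate 2 (0.0615). No sodium-proton exchanger of the 5 tested was called by edgeR, DESeq2 or limma-voom, where edgeR called 23.0% of all tested genes. Of the 5, 1, Slc9a9, had an unadjusted edgeR p under 0.05.

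Of the kinases that control these cotransporters and their partners, 3 of 8 tested were higher and 2 lower. These shares of 37.5% and 25.0% stand against 12.8% and 10.2% of all tested genes. Stk39, which encodes SPAK, had a log2 fold change of 1.00 (standard error 0.29, edgeR adjusted p = 0.0167), with an adjusted p of 0.263 without Confine replicate 3, 0.0579 without Ctrl replicate 3 and 0.0548 with library size alone. Oxsr1, its relative OSR1, had 0.69 (standard error 0.21, edgeR adjusted p = 0.0232), and its call was lost without Ctrl replicate 1 (adjusted p = 0.0575), Ctrl replicate 3 (0.0923), the first Confine library (0.057) or Confine replicate 3 (0.282), and with library size alone (0.109). Wnk4 was lower, at -1.34 (standard error 0.41, edgeR adjusted p = 0.0219), with 0.238 without the first Confine library and 0.0758 without Ctrl replicate 1. Klhl3, the adaptor through which a ubiquitin ligase removes WNK kinases, had 0, 0 and 3 counts in Ctrl and 75 and 84 in Confine, a ratio of 76.4 (95% counting interval 25.7 to 374).

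Sodium-potassium ATPase genes moved in both directions, with 2 of 6 tested higher and 2 lower, 33.3% each, against 12.8% and 10.2% of all tested genes. Atp1b1, a beta subunit, fell from 88, 156 and 102 counts to 15 and 22 (log2 fold change -2.69, standard error 0.40, edgeR adjusted p = 7.28e-05). Fxyd5, a small membrane protein that modulates the pump, rose from 63.5 ± 0.610 normalized CPM (SD, n = 3) to 246.8 ± 25.3 (SD, n = 2), a log2 fold change of 1.96 (standard error 0.17, edgeR adjusted p = 1.74e-07).

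Genes that handle organic osmolytes were lower where they were called, 3 of 6 tested. None was called higher by edgeR, DESeq2 or limma-voom, and none was higher at an unadjusted edgeR p under 0.05. Of all tested genes, edgeR called 10.2% lower and 12.8% higher. With only 6 genes tested, the lack of higher calls says little by itself. Slc5a3, the sodium/myo-inositol cotransporter, fell from 42.9 ± 4.85 normalized CPM (SD, n = 3) to 15.2 ± 0.721 (SD, n = 2), a log2 fold change of -1.5 (standard error 0.20, edgeR adjusted p = 1.68e-05). Impa1, an enzyme of inositol synthesis, had -0.80 (standard error 0.19, edgeR adjusted p = 0.00403), and Slc38a2, an amino acid transporter, -0.74 (standard error 0.20, edgeR adjusted p = 0.0114). Without Confine replicate 3 the adjusted p of Impa1 was 0.113 and that of Slc38a2 0.24. Nfat5, the transcription factor that induces several of these transporters in hypertonic medium, had a log2 fold change of 0.23 (standard error 0.19, edgeR adjusted p = 0.442).

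Among other chloride channels and bicarbonate transporters, Clcn3, an intracellular chloride-proton exchanger, rose with a log2 fold change of 1.35 (standard error 0.19, edgeR adjusted p = 4.01e-05). Clcn7, its lysosomal relative, had -0.64 (standard error 0.21, edgeR adjusted p = 0.0321, but 0.421 without Confine replicate 3 and 0.0618 without Ctrl replicate 1). Best1, a calcium-activated anion channel, fell from 59, 23 and 38 counts to 11 and 4 (log2 fold change -2.46, edgeR adjusted p = 0.00423), with an adjusted p of 0.0677 without Confine replicate 3. Slc4a4, the sodium bicarbonate cotransporter NBCe1, rose from 30, 34 and 15 counts to 102 and 165 (log2 fold change 2.32, standard error 0.37, edgeR adjusted p = 1.37e-04). It was the only 1 of 7 tested bicarbonate transporters to be called, a share of 14.3% higher against 12.8% of all tested genes.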

How the data were processed

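MEF libraries were made from polyadenylated RNA with second-strand dUTP removal. The authors deposited raw counts of reads per gene, without normalization. The submitters' processing notes name Trim Galore 0.6.10, HISAT2 2.1.0, SAMtools 1.5, featureCounts and mm10, and the annotation release and the strand setting are not given in the sources used here. Of 55335 identifiers, 55154 match GENCODE M21 (GRCm38) without their version, which gave symbols, positions and exon lengths. Columns not used numbered 0.

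Genes passing edgeR's filterByExpr (15881) were scaled by TMM. The quasi-likelihood test (edgeR 4.0.16, R 4.3.3) used 3 Ctrl and 2 Confine libraries and no replicate block. Levels between genes are per kilobase of union exons. Transcript copies were searched with blastn 2.17.0. The script was tested on simulated data.

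The members and lists were chosen with earlier results of these data known. Named were the 9 genes, up to 3 called genes per list with the largest absolute log2 fold change, and, chosen after their values were seen, Lrrc8e, Nfat5 and Oxsr1, genes at 0 counts, Kcnma1 and Slc9a9. Alternatives were DESeq2 1.42.0, limma-voom (limma 3.58.1), other normalizations and filters, the identical columns as 2 samples, a replicate block and leaving out each library. Shares used an exact permutation test. Some genes of the lists are counted but not reported here by name.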

Additional observations from a re-analysis of the deposited data

How the results depend on the processing

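Kcnn4 and Lrrc8d were called higher in each of 14 other fits. The number of genes called higher or lower at an adjusted p under 0.05 was 3654, from 2054 to 4426 over fits that left out 1 library, and 1271 with the further cutoff of 1.5 on the log2 fold change. Of the 9 genes, 5 were called, 3 to 5 without 1 library and 0 with that cutoff, and of the other 60 list genes 23 were called, 12 to 24 without 1 library and 8 with it. Without 1 library, log2 fold changes ran from 0.526 to 0.978 for Lrrc8a, 0.739 to 0.921 for Lrrc8c, 0.36 to 0.769 for Aqp1, -0.701 to 0.33 for Lrrc8b, -0.0402 to 0.201 for Slc12a4, -0.132 to 0.0345 for Ano6 and -1.20 to 0.0172 for Lrrc8e, and the difference in share ran from -0.356 to 0.197 percentage points for Lrrc8a and -0.103 to 0.26 for Lrrc8c. A fit without a Confine library has 1 left, assumed to vary like Ctrl. With library size alone Aqp1 had 0.372 and was not called, and Slc12a4 had -0.0952. The difference in share of Lrrc8a was 0.0124 when the repeated columns entered as 2 samples. With the replicate block, 2528 genes were called with the repeated library as number 2 and 4933 with it as number 1. In the first Aqp1 had 0.603 (adjusted p = 0.11) and Lrrc8e 0.000637, and the calls of Slc12a7 (adjusted p = 0.145), Wnk4 (0.0587), Clcn7 (0.074) and Oxsr1 (0.0579) were lost, and in the second Lrrc8b had 0.325 and Ano6 0.0386. The block leaves 1 residual degree of freedom. Differences of same-numbered libraries had a correlation across genes of -0.0531 and 0.0521. With 1 difference per group and the number of the repeated library unknown, this cannot decide whether same-numbered libraries were paired. The cause of these changes was not tested. Lengths limited to exon bases that belong to no other gene, with unchanged counts, were added as an alternative, for shares and for the order of levels, after seeing the data. Lrrc8b had 15 to 49 counts per library, with most of its spread in Ctrl from replicate 2.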

Other observations

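By root mean square difference of centred log2 CPM over the 5 libraries, the 3 genes of 15881 whose pattern was nearest to that of Kcnn4 were Atg10 (0.0414), Col27a1 (0.0422) and Kdm7a (0.0592), with log2 fold changes of 1.53, 1.45 and 1.44. This is a description over 5 libraries in 2 groups.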
